A study of Oryza sativa with 18 samples.

Results

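Jasmonate ZIM-domain (JAZ) proteins are the repressors of the jasmonate response, and 10 rice JAZ genes were followed among the 39049 genes of the expression table. They were taken by locus number from a list of JAZ/TIFY loci. In 9 of the 10 the deposited annotation names an Arabidopsis JAZ protein as the best match, and LOC_Os03g08310 carries no annotation. All 10 passed the filter on low values, a level of 1 or more in some column, as did 20568 genes in all. Levels are FPKM, sequenced fragments scaled to transcript length and library size.

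The leaves came from 3 rice genotypes at the tillering stage, kept well watered (control) or held for 1 day or 3 days of drought, when soil water had reached 15% and 10%. H471 is a drought tolerant introgression line, P28 is the tolerant donor of its introgressed segments, and HHZ is the drought sensitive recurrent parent. Each genotype and condition had 2 libraries, and the labels say that RNA of independent replicates was pooled. The authors merged the 18 libraries into 9 columns of 2 libraries each, so a genotype in a condition has 1 value with no replicate spread, and the table gives no read depth. H471 is a single line, and a difference between it and HHZ cannot be assigned to 1 introgressed segment from these values.

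JAZ proteins bind transcription factors such as MYC2 and, through the adaptor NINJA and TOPLESS co-repressors, keep jasmonate-responsive genes off. When jasmonoyl-isoleucine accumulates, the F-box receptor COI1 binds the JAZ proteins and marks them for degradation, which frees the transcription factors. In Arabidopsis many JAZ genes are themselves switched on by jasmonate, so that the pathway makes its own brake, and the hormone acts in wounding, defence and water deficit.

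The study also designed quantitative PCR primers for LOC_Os03g08320, which it calls OsJAZ1, and LOC_Os09g26780, which it calls OsJAZ7. LOC_Os09g26780 also lies in a chromosome 9 segment that the study lists as introgressed. The study reports both genes as higher in H471 than in HHZ under drought, and it measured both by quantitative PCR. The primers of LOC_Os03g08320 are shown, 5′ to 3′, as the study designed them.
LOC_Os03g08320 forward, chromosome 3: atcgtttttccccatttcttact
LOC_Os03g08320 reverse, chromosome 3: cgacaggcatcaatccgtg

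Levels of the 10 genes spanned a wide range. By the median over the 9 columns the order was LOC_Os03g28940 (114 FPKM), LOC_Os07g42370 (109), LOC_Os04g55920 (97.1), LOC_Os09g23660 (32.2), LOC_Os10g25290 (23.6), LOC_Os09g26780 (6.70), LOC_Os03g08320 (6.69), LOC_Os03g08330 (5.02), LOC_Os10g25230 (2.14) and LOC_Os03g08310 (0.413 FPKM). FPKM is per length, so these levels can be set against each other. The ranges of the 3 highest overlapped: LOC_Os03g28940, LOC_Os07g42370 and LOC_Os04g55920 lay at 57.0 to 154, 29.0 to 286 and 72.4 to 132 FPKM. LOC_Os09g23660 lay below LOC_Os04g55920 in all columns, at 19.8 to 62.8 FPKM, and every later gene in the order overlapped the range of the one before it. The 4 highest genes held 84.9% to 93.2% of the summed JAZ level in every column.

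The summed FPKM of the 10 genes in control, 1 day and 3 days was 510, 539 and 246 in H471, 673, 428 and 203 in P28, and 435, 479 and 228 in HHZ. All 3 genotypes had their lowest sum after 3 days, and P28 had the highest sum of all columns in control plants. The mix of transcripts also differed between conditions. LOC_Os07g42370, matched to Arabidopsis JAZ5, held 38.3%, 25.1% and 16.8% of the sum in H471 in control, 1 day and 3 days, 42.5%, 25.5% and 15.5% in P28, and 35.5%, 21.8% and 12.7% in HHZ. LOC_Os04g55920, matched to JAZ12, moved the other way, with 19.4%, 24.5% and 36.6% in H471, 14.2%, 23.7% and 35.6% in P28, and 22.3%, 25.2% and 40.5% in HHZ.

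**Figure D1:**
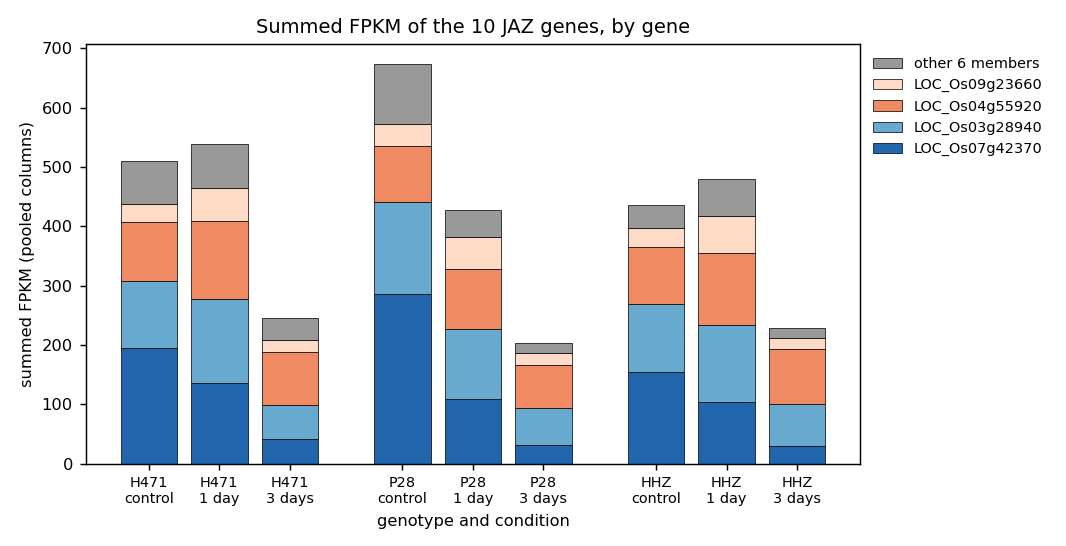
Summed FPKM of the 10 JAZ genes in each of the 9 pooled columns, stacked by gene, with genotype and condition on the horizontal axis. The sum is lowest after 3 days in each genotype (203 to 246 FPKM), and the LOC_Os07g42370 segment is smallest there.

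The drought response common to the 3 genotypes was fitted with limma on log2(FPKM + 1), with terms for genotype and condition, and p-values were adjusted by the Benjamini-Hochberg method over all 20568 genes. The spread is that of the genotypes around a shared response, not that between plants. All differences are on the log2(FPKM + 1) scale, which understates the change of low genes.

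After 1 day against control the 10 genes split. Relative to control, 3 were higher in droughted leaves, where 27.4% of all genes were called higher, and 1 was lower, where 30.8% were called lower. The median difference of the 10 was 0.11, and that of all genes was -0.02, so by median the 10 genes lay close to the background at this time. The 3 higher calls were 1 without H471, without HHZ or with no filter on low values, and the 1 lower call was 2 without H471 and 0 without HHZ or with no filter.

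LOC_Os09g23660, matched to Arabidopsis JAZ1, rose in each genotype at 1 day. Its levels in control, 1 day and 3 days were 30.4, 56.3 and 20.6 FPKM in H471, 36.0, 52.8 and 20.6 FPKM in P28, and 32.2, 62.8 and 19.8 FPKM in HHZ. The 3 values at 1 day lay above all 3 control values, and those at 3 days lay below them. The fitted difference was 0.78 ± 0.094 (SE) at 1 day (limma adjusted p = 0.000386) and -0.66 ± 0.094 at 3 days (limma adjusted p = 0.000975). On leaving out any 1 genotype both calls held, with differences of 0.70 to 0.90 at 1 day and -0.72 to -0.61 at 3 days.

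LOC_Os03g08330, also matched to JAZ1, had 4.70, 19.6 and 5.02 FPKM in control, 1 day and 3 days in H471, 9.52, 9.87 and 0.889 FPKM in P28, and 3.47, 15.8 and 1.63 FPKM in HHZ. At 1 day it stood at 4.16 times control in H471 and 4.56 times control in HHZ, against 1.04 times in P28. The fitted difference at 1 day was 1.27 ± 0.45 (SE, limma adjusted p = 0.0461), and the call did not hold without H471 (0.98, adjusted p = 0.200) or without HHZ (0.95, adjusted p = 0.303). Whether the response of P28 differs was not tested, since each genotype has 1 value a condition.

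LOC_Os04g55920 had the narrowest range of the 10 genes, 1.82 times from lowest to highest. Its levels in control, 1 day and 3 days were 99.0, 132 and 90.0 FPKM in H471, 95.6, 101 and 72.4 FPKM in P28, and 97.1, 121 and 92.2 FPKM in HHZ. Values at 1 day exceeded all control values and values at 3 days lay below all of them. The difference was 0.27 ± 0.086 (SE, limma adjusted p = 0.0326) at 1 day, a call that was lost without H471 (adjusted p = 0.208) or HHZ (adjusted p = 0.149), and -0.20 ± 0.086 at 3 days (adjusted p = 0.0839).

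LOC_Os07g42370, the JAZ5 match, was the gene called lower at 1 day. It had 195, 136 and 41.4 FPKM in control, 1 day and 3 days in H471, 286, 109 and 31.4 FPKM in P28, and 155, 105 and 29.0 FPKM in HHZ. The order control, 1 day, 3 days was the same in all 3 genotypes, with no overlap between the conditions. It fell by 0.82 ± 0.19 (SE) at 1 day (limma adjusted p = 0.00789; 0.0516 without HHZ) and by 2.58 ± 0.19 at 3 days (limma adjusted p = 4.90e-05).

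After 3 days against control, 0 of the 10 genes were called higher (27.0% of all genes) and 6 were called lower (30.1% of all genes). The median difference was -0.92 for the 10 genes and -0.03 for all genes, and all 10 fitted differences were below 0. In 8 of the 10 genes all 3 values at 3 days lay below all 3 control values, a pattern held by 31.8% of all genes. Among the 8 is LOC_Os03g08310, which reached 1 FPKM only in P28 control plants (1.07 FPKM) and in H471 at 1 day (1.79 FPKM). The filter thus favoured its lower values at 3 days.

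LOC_Os10g25290, a JAZ1 match, fell with LOC_Os07g42370 by the most. It had 44.5, 35.1 and 9.44 FPKM in control, 1 day and 3 days in H471, 60.3, 23.6 and 4.32 FPKM in P28, and 20.7, 31.0 and 4.10 FPKM in HHZ. The 3 values at 3 days lay below all others, while HHZ was above its control at 1 day and both other genotypes were below theirs. It fell by 2.58 ± 0.34 (SE) at 3 days (limma adjusted p = 0.000695), and its difference at 1 day was -0.36 ± 0.34 (limma adjusted p = 0.391), or 0.11 without P28. Over the 9 columns its levels tracked those of LOC_Os07g42370 (Pearson r = 0.964), the closest pair among the 45 pairs of the 10 genes, which share the same 9 columns.

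LOC_Os03g28940, matched to JAZ2, had 113, 141 and 57.0 FPKM in control, 1 day and 3 days in H471, 154, 118 and 61.7 FPKM in P28, and 114, 129 and 71.3 FPKM in HHZ. At 1 day it was above control in H471 and HHZ and below control in P28, and its fitted difference was 0.04 ± 0.15 (SE, limma adjusted p = 0.831). At 3 days it fell by 0.98 ± 0.15 (SE, limma adjusted p = 0.00137).

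The other 2 genes called lower at 3 days were both at low levels. LOC_Os09g26780 had 8.65, 6.70 and 8.40 FPKM in control, 1 day and 3 days in H471, 9.98, 4.28 and 3.08 FPKM in P28, and 8.56, 5.52 and 3.37 FPKM in HHZ, and the fitted difference at 3 days was -0.87 ± 0.25 (SE, limma adjusted p = 0.0229). In H471 alone the 3-day value was close to control, at 0.971 times it, against 0.308 times in P28 and 0.394 times in HHZ. The call was lost without P28 (-0.58, adjusted p = 0.203) or without HHZ (-0.73, adjusted p = 0.182). Its difference at 1 day was -0.65 ± 0.25 (adjusted p = 0.0632; 0.0229 without H471).

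LOC_Os10g25230, matched to JAZ11, had 2.71, 4.22 and 1.13 FPKM in control, 1 day and 3 days in H471, 4.74, 2.14 and 0.171 FPKM in P28, and 1.17, 3.16 and 0.705 FPKM in HHZ. All 3 genotypes were lowest at 3 days, and P28 was below its control at 1 day where H471 and HHZ were above theirs. It fell by 1.15 ± 0.37 (SE) at 3 days (limma adjusted p = 0.0331), and the call was lost on leaving out any 1 genotype (-1.32, adjusted p = 0.127, without H471; -0.57, adjusted p = 0.0614, without P28; -1.55, adjusted p = 0.0550, without HHZ), with the difference moving most without P28. At 1 day the difference was 0.19 ± 0.37 (adjusted p = 0.688).

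LOC_Os03g08310 stayed near the filter. Its levels in control, 1 day and 3 days were 0.446, 1.79 and 0.359 FPKM in H471, 1.07, 0.954 and 0 FPKM in P28, and 0.413, 0.404 and 0.142 FPKM in HHZ. It was listed at 0 in P28 after 3 days, and its difference was 0.29 ± 0.26 (SE) at 1 day and -0.48 ± 0.26 at 3 days, neither called by limma (adjusted p = 0.370 and 0.150). LOC_Os03g08310, LOC_Os03g08320 and LOC_Os03g08330 have consecutive locus numbers, and LOC_Os10g25230 and LOC_Os10g25290 nearby ones; the study's text describes both a multi-read correction and the use of uniquely matching reads, and levels within such groups of related genes are uncertain under either.

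**Figure D2:**
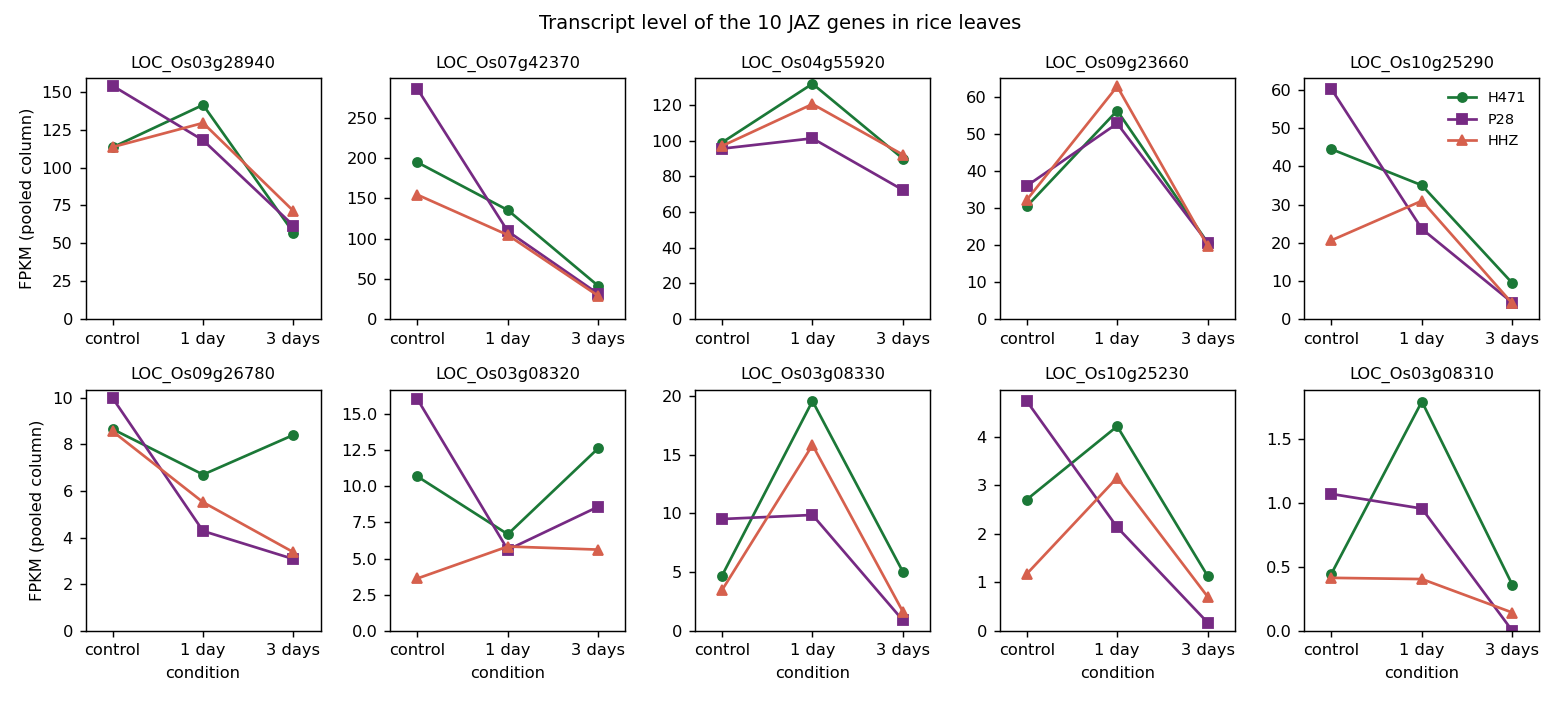
FPKM of each of the 10 JAZ genes (1 panel a gene, each with its own scale from 0) in control plants and after 1 day and 3 days of drought, with 1 pooled value a point for H471, P28 and HHZ. LOC_Os07g42370 falls at each step in every genotype, LOC_Os09g23660 peaks at 1 day, and LOC_Os03g08320 has no order shared by the genotypes.

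Set against 1 day, the 3-day columns were lower for 8 of the 10 genes (24.4% of all genes were lower), and higher for 0 (25.3% higher). The median difference was -1.18 for the 10 genes and 0.01 for all genes. LOC_Os03g08330 fell by 2.33 ± 0.45 (SE, limma adjusted p = 0.00482), LOC_Os10g25290 fell by 2.22 ± 0.34 (adjusted p = 0.00167), LOC_Os07g42370 fell by 1.76 ± 0.19 (adjusted p = 0.000290) and LOC_Os09g23660 fell by 1.45 ± 0.094 (adjusted p = 3.02e-05). Of the same 8, LOC_Os10g25230 (-1.33), LOC_Os03g28940 (-1.02), LOC_Os03g08310 (-0.77) and LOC_Os04g55920 (-0.47) fell less, and without HHZ 5 of the 8 calls stood. LOC_Os03g08310 reached 1 FPKM only in H471 at 1 day and in P28 in control plants, so its lower level at 3 days was favoured by the filter. LOC_Os09g26780 (-0.22) and LOC_Os03g08320 (0.44) were not called.

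**Figure D3:**
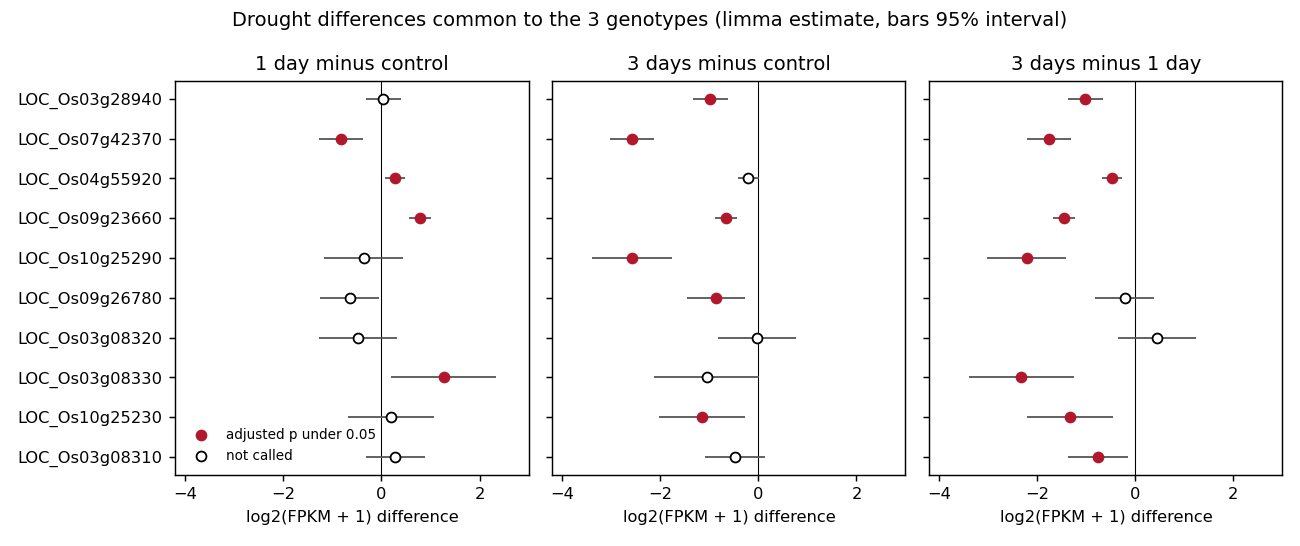
limma estimates for the 10 JAZ genes, with 95% intervals, for 1 day minus control, 3 days minus control and 3 days minus 1 day, on the log2(FPKM + 1) scale; filled points have an adjusted p under 0.05. The 3-day estimates against control lie below 0, with LOC_Os07g42370 and LOC_Os10g25290 farthest at -2.58.

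Within a genotype no test was possible, and genes were counted by a size rule, a difference of at least 1 on the log2(FPKM + 1) scale. At 1 day against control, P28 had 4 of the 10 genes lower (14.9% of all genes): LOC_Os03g08320, LOC_Os07g42370, LOC_Os09g26780 and LOC_Os10g25290. H471 had 0 lower (13.4%) and HHZ had 0 lower (13.1%), and both had 1 higher, LOC_Os03g08330 (13.2% and 12.5% of all genes). At 3 days against control, 2 were lower in H471 (13.6%), 7 in P28 (13.5%) and 3 in HHZ (13.3%), and 0 were higher in any genotype (10.9%, 9.09% and 10.3%). The median of the 10 differences at 3 days was -0.34 in H471, -1.37 in P28 and -0.67 in HHZ. At 3 days against 1 day, 7 were lower in H471 (12.4%), 5 in P28 (11.5%) and 5 in HHZ (11.4%), and 0 were higher (8.72%, 7.94% and 7.76%). Both counts of 7 include LOC_Os03g08310, whose lower values at 3 days the filter favoured. P28 had the highest control value of the 3 genotypes in 9 of the 10 genes, a pattern held by 37.5% of all genes. The 9 also include LOC_Os03g08310, which among the control columns reached 1 FPKM only in P28, so the filter favoured this pattern for it.

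LOC_Os03g08320 (OsJAZ1) had no response common to the genotypes. It had 10.7, 6.69 and 12.6 FPKM in control, 1 day and 3 days in H471, 16.0, 5.61 and 8.59 FPKM in P28, and 3.62, 5.84 and 5.62 FPKM in HHZ. The 1-day values were 0.625 times control in H471, 0.350 times in P28 and 1.61 times in HHZ, and the 3 genotypes were within 5.61 to 6.69 FPKM of each other at that time. The fitted difference was -0.47 ± 0.34 (SE) at 1 day and -0.03 ± 0.34 at 3 days (limma adjusted p = 0.265 and 0.949), and that at 3 days was 0.37 without P28. Its correlation with the other 9 genes ran down to r = -0.28 (with LOC_Os09g23660), while the median over all 45 pairs was 0.72.

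H471 was then compared with HHZ, the comparison that addresses what introgression changed. limma, over the 3 conditions, called 0 of the 10 genes in either direction and 46 of all 20568 genes (0.224%). This fit averages control and drought columns, so it does not test a difference present under drought alone. Before adjustment, 1 of the 10 had a p under 0.05, LOC_Os03g08320. 7 of the 10 were higher in H471 in all 3 conditions, a pattern held by 12.1% of all genes, and 0 were lower in all 3 (16.7%). The 7 include LOC_Os03g08310, which reached 1 FPKM only in H471 at 1 day and in P28 control plants. For that gene the filter favoured H471 over HHZ. The median fitted difference of the 10 was 0.44, and that of all genes was -0.01.

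For LOC_Os03g08320 the levels were 10.7 FPKM in H471 and 3.62 FPKM in HHZ in control plants, 6.69 and 5.84 FPKM at 1 day, and 12.6 and 5.62 FPKM at 3 days. All 3 H471 values lay above all 3 HHZ values, a pattern that 1.30% of all genes shared. The ratio of H471 to HHZ was 2.95 in control, 1.15 at 1 day and 2.25 at 3 days, and the difference common to the conditions was 0.85 ± 0.34 (SE, limma adjusted p = 0.694).

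LOC_Os09g26780 (OsJAZ7) had 8.65 FPKM in H471 and 8.56 FPKM in HHZ in control plants, 6.70 and 5.52 FPKM at 1 day, and 8.40 and 3.37 FPKM at 3 days. H471 stood at 1.01 times HHZ in control plants and 2.49 times after 3 days, where P28, the donor, had 3.08 FPKM. The difference common to the conditions was 0.45 ± 0.25 (SE, limma adjusted p = 0.864).

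LOC_Os10g25290 had 44.5 FPKM in H471 and 20.7 FPKM in HHZ in control plants, 35.1 and 31.0 FPKM at 1 day, and 9.44 and 4.10 FPKM at 3 days, with a common difference of 0.76 ± 0.34 (SE, limma adjusted p = 0.769). LOC_Os03g08330 stood at 1.35, 1.24 and 3.09 times HHZ in control, 1 day and 3 days, and LOC_Os07g42370 at 1.26, 1.30 and 1.43 times. The 3 other abundant genes, LOC_Os03g28940, LOC_Os04g55920 and LOC_Os09g23660, had common differences of -0.06, 0.04 and -0.06 (95% intervals -0.42 to 0.29, -0.16 to 0.25 and -0.28 to 0.16).

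By the size rule, 2 of the 10 genes were higher in H471 than in HHZ in control plants (1.31% of all genes), 0 at 1 day (1.79%) and 4 at 3 days (1.93%), and 0 were lower in any condition (1.15%, 1.62% and 1.47%). The 4 at 3 days were LOC_Os03g08320, LOC_Os03g08330, LOC_Os09g26780 and LOC_Os10g25290, with differences of 1.04, 1.20, 1.11 and 1.03. These values sit just past the rule, and with 1 pooled value a column their error is unknown.

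P28 and HHZ differed past the size rule in control plants. By the size rule 4 of the 10 were higher in P28 in control plants (4.17% of all genes), LOC_Os03g08320, LOC_Os03g08330, LOC_Os10g25230 and LOC_Os10g25290, with ratios of 4.43, 2.74, 4.04 and 2.92. None was lower in control plants (3.09%). At 1 day 0 were higher (3.33%) and 0 lower (3.43%), at 3 days 0 were higher (3.34%) and 0 lower (2.90%), and the median difference was 0.72 in control plants, -0.25 at 1 day and -0.15 at 3 days. limma called 0 of the 10 over the 3 conditions (6.64% of all genes), and 0 had a p under 0.05 before adjustment. H471 against P28 also had 0 called (6.72% of all genes) and 1 with a p under 0.05 before adjustment, LOC_Os04g55920 (0.25 ± 0.086 SE, limma adjusted p = 0.167). By the size rule 2 were higher in H471 than in P28 at 3 days (3.70% of all genes), LOC_Os03g08330 and LOC_Os09g26780, and 0 were lower (3.64%). In control plants 0 were higher (2.94%) or lower (3.83%), and at 1 day 0 were higher (4.10%) or lower (3.56%).

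**Figure D4:**
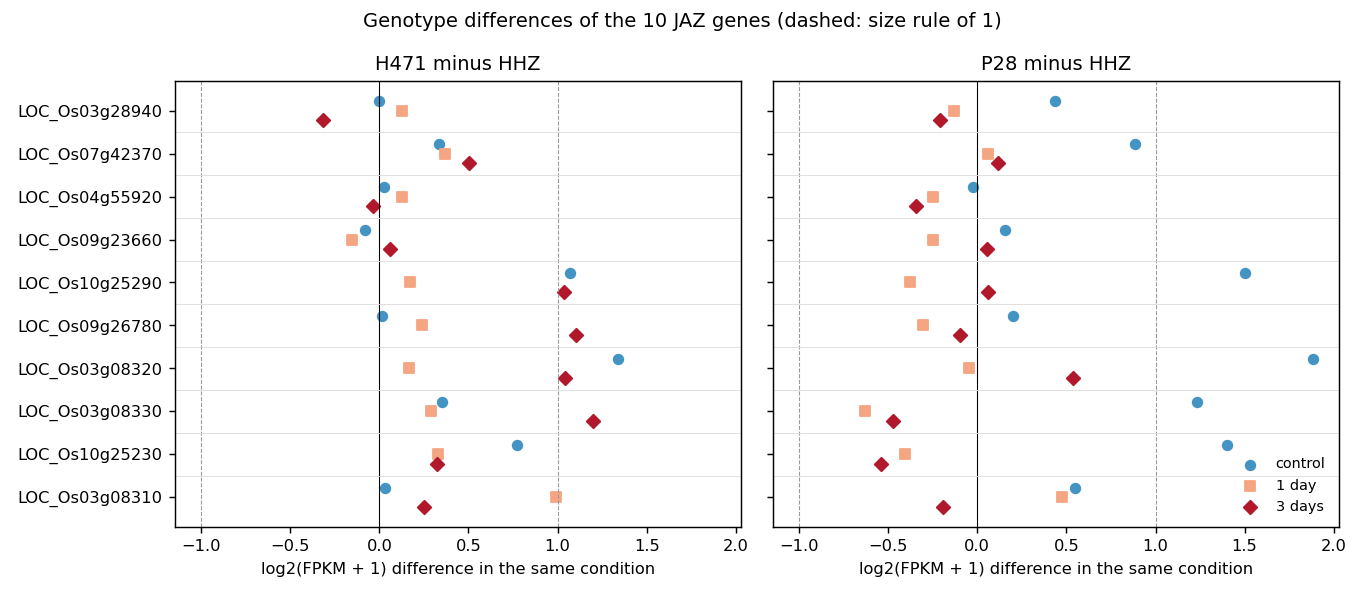
Differences of H471 (left) and P28 (right) from HHZ in the same condition for the 10 JAZ genes, on the log2(FPKM + 1) scale, with 1 point each for control, 1 day and 3 days. The P28 points past 1 are all from control plants, and those of H471 are from control plants and 3 days.

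The genes whose levels were most like those of the OsJAZ1 and OsJAZ7 loci were sought among 10783 other described genes that reached an FPKM of 10 in some column. For LOC_Os03g08320 they were LOC_Os09g33950, described as ferredoxin-like (Pearson r = 0.881 over the 9 columns), LOC_Os02g40700, a cupin-like protein (r = 0.823), and LOC_Os07g43570, whose match is the receptor-like kinase CRK10 (r = 0.820). LOC_Os07g43570 had 206, 42.2 and 263 FPKM in control, 1 day and 3 days in H471 and 219, 36.6 and 323 FPKM in P28, against 0.124, 0.397 and 0.286 FPKM in HHZ. For LOC_Os09g26780 they were LOC_Os02g37080, matched to the ceramide synthase family gene LAG13 (r = 0.965), LOC_Os02g14990, a RING/U-box protein (r = 0.929), and LOC_Os12g32180, a Cornichon family protein (r = 0.927). These values are descriptions over 9 columns that share genotypes and conditions.

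Other genes of the jasmonate pathway were followed in lists. Of 5 further JAZ loci, 2 passed the filter and both were called lower at 1 day (30.8% of all genes) and at 3 days (30.1%). LOC_Os08g33160, matched to JAZ3, had 20.3, 9.58 and 11.7 FPKM in control, 1 day and 3 days in H471, 17.5, 10.6 and 9.13 FPKM in P28, and 15.3, 10.97 and 9.56 FPKM in HHZ, with differences of -0.71 and -0.75 (limma adjusted p = 0.00234 and 0.00203). LOC_Os04g32480, matched to JAZ10, reached 1 FPKM only in control plants (1.03 FPKM in H471 and 2.83 FPKM in P28), so the filter itself favoured a lower drought value, and it differed by -1.06 at both times; LOC_Os10g25250 and the other 2 stayed below the filter.

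Lipoxygenases, a family in which some members open the synthesis of jasmonate from linolenic acid, moved in both directions. The listed loci are matched to Arabidopsis LOX2, LOX3 or LOX5, and which of them act in jasmonate synthesis was not tested. LOC_Os03g49350, named below, is a LOX5 match. Of the 9 tested (11 listed), 3 rose (27.4% of all genes) and 5 fell (30.8%) at 1 day. At 3 days 2 rose (27.0%) and 4 fell (30.1%). LOC_Os02g10120 rose by 4.14 at 1 day and 3.52 at 3 days, LOC_Os03g49350 by 1.25 and 1.71, and LOC_Os12g37260 by 2.45 ± 0.76 (SE) at 1 day. LOC_Os12g37260 had 21.0, 55.5 and 16.4 FPKM in control, 1 day and 3 days in H471, 5.12, 205 and 7.35 FPKM in P28, and 17.1, 32.9 and 13.7 FPKM in HHZ, so P28 gave most of that difference. LOC_Os08g39840 fell (-5.05 and -3.71) and so did LOC_Os08g39850 (-4.36 and -4.55), and the 1-day values of LOC_Os08g39840 were 2.71, 4.40 and 3.83 FPKM in H471, P28 and HHZ, against 134, 176 and 147 FPKM in their controls.

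Of the later synthesis genes, 8 of 10 were tested, and 2 rose (27.4% of all genes) and 4 fell (30.8%) at 1 day. At 3 days 1 rose (27.0%) and 5 fell (30.1%). The allene oxide synthase match LOC_Os03g55800 fell (-1.57 and -1.5), as did the 12-oxophytodienoate reductase match LOC_Os08g35740 (-0.73 and -1.14). LOC_Os05g50890, matched to JAR1, which conjugates jasmonate to isoleucine in Arabidopsis, rose by 0.24 at 1 day and fell by 0.39 at 3 days. The allene oxide cyclase match LOC_Os03g32314 was not called (-0.14 and -0.23, limma adjusted p = 0.238 and 0.0758). The study placed LOC_Os05g14010 and LOC_Os12g04500 in this pathway, while the deposited annotation describes them as a bHLH protein and a response regulator; LOC_Os05g14010 rose by 1.01 and 0.47, and LOC_Os12g04500 fell (-1.66 and -2.80). Without both, 1 of 6 rose and 3 fell at 1 day, and 0 rose and 4 fell at 3 days. Every count of falls here includes the allene oxide synthase match LOC_Os03g12500. It reached 1 FPKM only in P28 control plants (1.27 FPKM), so the filter itself favoured a lower drought value.

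Among 7 genes of perception and co-repression, 2 rose (27.4% of all genes) and 4 fell (30.8%) at 1 day. At 3 days 3 rose (27.0%) and 3 fell (30.1%). The COI1 matches LOC_Os05g37690 and LOC_Os01g63420 rose by 0.80 and 0.75 at 1 day and by 1.43 and 0.87 at 3 days, and another match, LOC_Os03g15880, fell by 0.91 at 1 day and rose by 0.35 at 3 days. The TOPLESS-related genes LOC_Os08g06480 (-0.52 and -0.82) and LOC_Os01g15020 (-0.29 and -0.66) fell. Another TOPLESS-related gene, LOC_Os03g14980, was lower at 1 day (-0.27) and not called at 3 days (0.14, limma adjusted p = 0.133). The NINJA match LOC_Os05g48500 had a difference of -0.12 at 1 day (limma adjusted p = 0.150) and fell by 0.29 at 3 days.

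Of 3 transcription factors, the MYC2 match LOC_Os10g42430 was not called at either time (0.21 and 0.24, limma adjusted p = 0.368 and 0.314). LOC_Os04g23550, known in rice as the jasmonate-responsive factor RERJ1, rose by 2.51 and 0.82, and LOC_Os03g53020, a bHLH factor, fell (-0.80 and -2.06). None of the genes in these lists was called by limma between H471 and HHZ over the 3 conditions (0.224% of all genes).

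**Figure D5:**
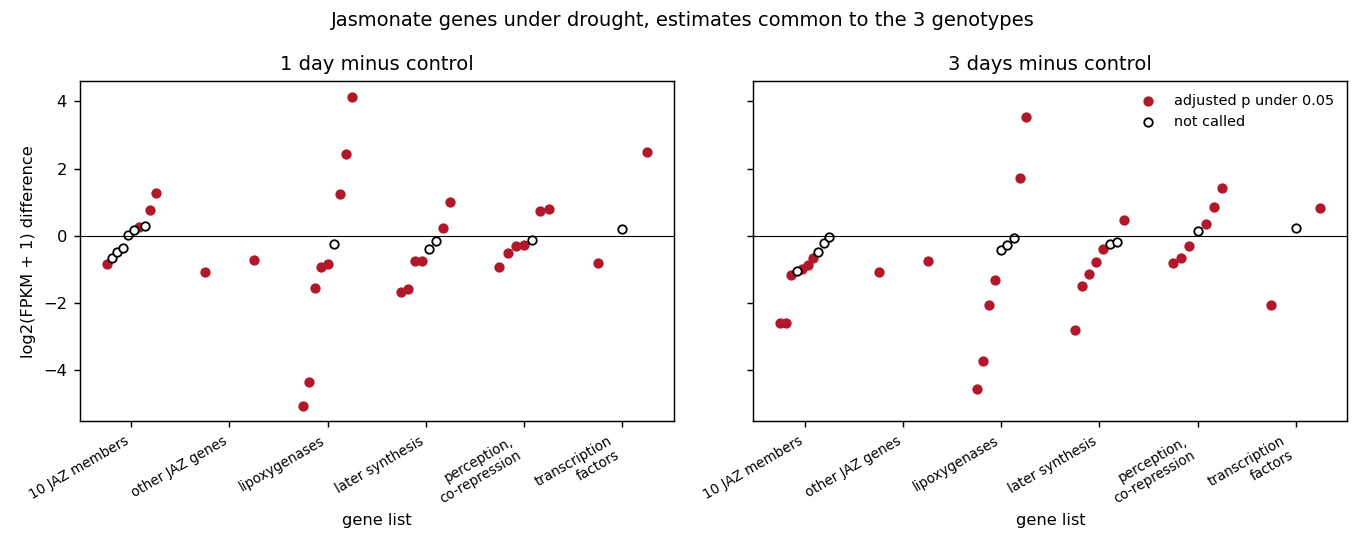
limma differences from control after 1 day (left) and 3 days (right) for the 10 JAZ genes and 5 other jasmonate gene lists, on the log2(FPKM + 1) scale, with 1 point a gene and filled points called at an adjusted p under 0.05. The lipoxygenases reach from -5.05 to 4.14 at 1 day, while the 10 JAZ genes lie between -0.82 and 1.27.

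Tissue markers were read beside these results. Leaf markers were abundant in every column, with a summed level in H471, P28 and HHZ of 7104, 7688 and 6821 FPKM in control plants, 24722, 30478 and 28424 FPKM at 1 day, and 3133, 4392 and 4059 FPKM at 3 days. Of the 5, 4 rose at 1 day (27.4% of all genes), and 2 rose (27.0%) and 3 fell (30.1%) at 3 days. Rubisco activase (LOC_Os11g47970) rose by 5.34 and 0.96 and the rubisco small subunit (LOC_Os12g17600) fell by 3.44 at 3 days. The root marker RCc3 (LOC_Os02g44310) was listed at 0 in all 9 columns and the meristem marker OSH1 (LOC_Os03g51690) reached 0.0636 FPKM, while the silicon transporter Lsi1 (LOC_Os02g51110) lay at 7.47 to 18.8 FPKM and rose by 0.83 at 3 days. The root nitrate transport partner NAR2.1 (LOC_Os02g38230) had 2.25, 2.16 and 2.19 FPKM at 3 days in H471, P28 and HHZ, was under 1 FPKM in the other columns, so that it passed the filter only through the 3-day columns, and rose by 1.21 at 3 days. The hour of sampling is not given in the sources used here, and its part, and that of the leaf markers, in the JAZ differences between days was not tested; in bulk leaves fewer cells of a type and less RNA per cell cannot be told apart.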

How the data were processed

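Leaf RNA of 18 libraries from H471, P28 and HHZ was sequenced as paired ends after ribosomal RNA depletion. The authors aligned the reads with TopHat to the MSU rice genome and obtained FPKM with Cufflinks, using bias and multi-read correction, at versions not given in the sources used here. In the deposited FPKM table each of 9 columns pools the 2 libraries of a genotype and condition, so it gives neither depth nor replicate spread. Column codes were matched to groups through the sample descriptions.

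Genes reaching an FPKM of 1 in some column were kept, and log2(FPKM + 1) was taken. limma 3.58.1 (R 4.3.3), with a trend on mean expression and additive terms for genotype and condition, left 4 residual degrees of freedom, and an adjusted p under 0.05 (Benjamini-Hochberg over 20568 genes) was called. Its p-values rest on the spread left after both terms, that of genotypes around a shared response, not on that between plants. A genotype difference present in only some conditions adds to this spread. Single pairs of columns were read by a size rule of 1 with no test. Python 3.11.15, pandas 2.3.3 and matplotlib 3.10.9 did the rest.

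The 10 genes and the lists were chosen with earlier results of these data known. All 10 genes are named. In each list the text names genes among those with an FPKM of at least 5 that had the 2 largest or 2 smallest differences at 1 day or 3 days. It also names LOC_Os04g32480, LOC_Os10g25250, LOC_Os08g35740, LOC_Os03g12500, LOC_Os05g48500, LOC_Os03g14980, LOC_Os03g15880 at 3 days and the tissue markers, which fall outside that rule. The 3 genes most like LOC_Os03g08320 and LOC_Os09g26780 were found by Pearson correlation. Arabidopsis symbols come from the deposited annotation. No gene or protein sequence linked to these locus numbers was used here. Alternatives were a pseudocount of 0.1, no filter, an FPKM minimum of 5, median-ratio scaling, no trend, each genotype or condition left out, a size rule of 1.5 and, chosen after seeing the data, the other drought day left out.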

Additional observations from a re-analysis of the deposited data

Results flagged for a closer look

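LOC_Os03g08320 (OsJAZ1) moved in opposite directions in 2 genotypes under drought. On the log2(FPKM + 1) scale its difference from control in P28 was -1.37 at 1 day and -0.83 at 3 days, and in HHZ it was 0.56 at 1 day and 0.52 at 3 days. The difference between the genotypes was not tested, because each column is a single pooled value.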

How the results depend on the processing

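No paired analysis was possible because the deposited columns pool the replicates and carry no replicate number. The table gives no depth, so no counting interval can be given, and the low genes (LOC_Os03g08310, LOC_Os10g25230) are the least certain. Of 488 fitted member values under alternatives, 430 kept their direction and their side of the threshold. Another 30 lost their call, 3 gained one and 25 changed sign. The cause of the changes was not tested. Fits with a genotype or a condition left out had 2 residual degrees of freedom, where the main fit had 4.
The count of 3 genes higher at 1 day was 1 with no filter, with no trend and with the columns of the other day left out. It was 2 with a pseudocount of 0.1, and 1 to 4 on leaving out a genotype. The count of 1 lower at 1 day was 0 with no filter, 2 with the other day left out and 0 to 2 on leaving out a genotype. The 6 lower at 3 days were 4 with no filter and 4 to 5 on leaving out a genotype. The 8 lower at 3 days against 1 day were 6 with no filter and 5 to 7 on leaving out a genotype.
The differences that changed sign were not called in any of those fits. On leaving out a genotype, the 1-day difference ranged from -0.046 to 0.47 for LOC_Os03g08310, -0.097 to 0.25 for LOC_Os03g28940, -0.19 to 0.72 for LOC_Os10g25230 and -0.83 to 0.11 for LOC_Os10g25290, and the 3-day difference from -0.30 to 0.37 for LOC_Os03g08320. On leaving out a condition, the difference of H471 from HHZ ranged from -0.16 to 0.062 for LOC_Os03g28940 and -0.0031 to 0.079 for LOC_Os04g55920. That of P28 from HHZ ranged from -0.55 to 0.38 for LOC_Os03g08330, -0.17 to 0.15 for LOC_Os03g28940, -0.20 to 0.050 for LOC_Os09g26780, -0.095 to 0.11 for LOC_Os09g23660, -0.47 to 0.50 for LOC_Os10g25230 and -0.16 to 0.78 for LOC_Os10g25290. That of H471 from P28 ranged from -0.037 to 0.48 for LOC_Os03g08310, -0.16 to 0.36 for LOC_Os03g08320, -0.27 to 0.073 for LOC_Os03g28940, -0.12 to 0.35 for LOC_Os07g42370 and -0.12 to 0.046 for LOC_Os09g23660. A pseudocount of 0.1 gave -0.016 for LOC_Os03g08330 and -0.063 for LOC_Os10g25230 in P28 against HHZ, and median-ratio scaling gave 3.24e-05 for LOC_Os09g23660.
At a size rule of 1.5, the genes lower were 3 in H471 and 3 in P28 at 3 days against 1 day, and 0 at 1 day and 4 at 3 days in P28 against control; those higher were 0 in control plants and 0 at 3 days in H471 against HHZ, 2 in control plants in P28 against HHZ, and 1 at 3 days in H471 against P28. With a pseudocount of 0.1, 2 were higher at 1 day in H471 and 2 in HHZ against control, 5 were lower at 3 days in HHZ, 1 was higher at 1 day in H471 and 1 in P28 against HHZ, 2 were lower at 3 days in P28 against HHZ, 5 were higher at 3 days in H471 against P28, and 2 were lower in control plants in H471 against P28. With median-ratio scaling 1 was higher at 1 day in H471 against HHZ.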
